A study of Mus musculus with 6 samples.

Results

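Bone marrow-derived macrophages (BMDMs) express receptors for chemokines, and the 9 receptor genes Ccr1, Ccr2, Ccr3, Ccr7, Ccrl2, Cxcr4, Cxcr6, Cx3cr1 and Ackr3 were compared here between PKM2ΔMAC and PKM2FL/FL mice. They were taken by symbol as receptors on macrophages and include the receptor cluster of chromosome 9. All 9 were found among the 23935 gene symbols of the deposited tables, and all 9 were among the 16516 genes that passed the filter on low counts. Bone marrow of femur and tibia was cultured with M-CSF for 7 days, and the resulting BMDMs were primed over 16 h with LPS at 10 ng/mL together with IFN-γ at 25 ng/mL. RNA-seq libraries were made from 3 mice of each genotype, 1 library per mouse. Both genotypes carry the floxed Pkm2 allele, and the PKM2ΔMAC mice carry in addition LysM-Cre, in which the Lyz2 locus drives the recombinase, so that it acts in cells of the myeloid lineage and not in macrophages alone. Every library is titled as primed. The level of the receptors in unprimed cells was therefore not analysed here, and the response of these cultures to priming was not tested. The sources used here do not tie an age or sex to the mice behind these libraries. The paper names male mice for the BMDMs of its flow cytometry, and gives age and sex for its liver injury experiments.

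Chemokine receptors are G protein-coupled receptors of the cell surface that direct the migration of leukocytes along gradients of small secreted proteins, the chemokines. Signals from most of them pass through inhibitory G proteins to phosphoinositide 3-kinase, phospholipase C and small GTPases such as Rac, and the signal is ended by receptor kinases, arrestins and RGS proteins. Atypical receptors such as ACKR3 bind chemokines without the usual G protein signal and take the ligand up, and CCRL2 holds the attractant chemerin at the cell surface. In the monocyte and macrophage lineage, CCR2 is known for the exit of inflammatory monocytes from the bone marrow, and CX3CR1 for patrolling monocytes and resident macrophages.

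The 2 genes whose difference passed the test were Ccr3 and Cxcr4, and the 250 bases before the start site of each are shown beside their values. They are from RefSeq on GRCm38.p6, written 5′ to 3′ on the strand of the gene, and capitals mark the motif matches described next. The stretch of Ccr3 is chr9:124021721-124021970 on the plus strand and that of Cxcr4 is chr1:128592300-128592549 on the minus strand.
Ccr3: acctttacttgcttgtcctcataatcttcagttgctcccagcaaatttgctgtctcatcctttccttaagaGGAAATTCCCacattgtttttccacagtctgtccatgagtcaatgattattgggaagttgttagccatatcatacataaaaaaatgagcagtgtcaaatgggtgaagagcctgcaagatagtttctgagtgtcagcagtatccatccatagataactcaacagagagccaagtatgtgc
Cxcr4: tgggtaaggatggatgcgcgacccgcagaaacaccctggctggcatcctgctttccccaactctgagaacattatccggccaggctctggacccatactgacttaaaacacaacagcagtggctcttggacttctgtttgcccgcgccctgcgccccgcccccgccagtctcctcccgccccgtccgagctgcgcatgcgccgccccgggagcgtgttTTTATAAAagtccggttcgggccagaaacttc

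Both strands of windows from 250 bases before to 50 bases after the start were searched for the interferon response element core (GAAA, any 2 bases, GAAA), the interferon-γ activated site TTCNNNGAA, the hypoxia response element ACGTG, the κB motif (GGG, any 5 bases, CC) and the TATA motif TATAAA. These letters were found in 3.44%, 8.30%, 19.6%, 50.8% and 13.6%, in that order, of the 32851 promoters of the same length in the RefSeq table. The window of Ccr3 held 1 match, to the κB motif, at position -179, in the reverse orientation. The window of Cxcr4 held the TATA motif at position -30 on its own strand and at position -32 on the opposite strand, which overlap. Its GC content was 59.3%, against 39.0% for Ccr3. Among the other receptor genes, Ccrl2 had 3 annotated starts in the table. The window of start 1 held the hypoxia response element at position -82 and κB matches at -68, -56 and -55, of which the last 2 overlap. The windows of starts 2 and 3 held the hypoxia response element at -99 and -125 in turn, and no κB match. Ccr1 and Cx3cr1 each had 1 κB match and Ackr3 had 1 TATA match. No window of Ccr2 or Cxcr6 held any of the 5 motifs. Promoters of 8 of the 9 genes were in the table, and that of Ccr7 was not shown. A match describes letters in the window and was not tested for binding.

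Total counts were between 49957449 and 54524651 per library, and a count of 0 still allows 3 counts, or between 0.0546 and 0.0604 CPM, the counts of a gene relative to the scaled library total. This is a limit that covers counting error only. Pkm, the targeted gene, had 1714, 1698 and 1705 CPM in PKM2FL/FL against 987, 1212 and 1005 CPM in PKM2ΔMAC libraries, and reads of its isoforms PKM1 and PKM2 were counted together. Lyz2, which receives the Cre, had 17825 ± 860 CPM in PKM2FL/FL against 28.4 ± 3.80 CPM in PKM2ΔMAC (SD, n = 3 each). The other 7 macrophage markers were expressed in both genotypes, and edgeR called 1 of them, the integrin gene Itgam, with 196 ± 2.54 and 264 ± 9.31 CPM (SD, n = 3 each). Adgre1, which encodes F4/80, had 1688 and 2020 CPM, also without overlap. Its adjusted p was 0.236 in edgeR's quasi-likelihood test, 0.0414 without PKM2ΔMAC replicate 2 and 0.0383 with DESeq2, so that it was called in the last 2. Csf1r, the M-CSF receptor gene, had 3284 and 3259 CPM. Cd68 had 939 and 893 CPM and Cd14 had 415 and 401 CPM, and these 3 genes, Mertk and Fcgr1 were not called by edgeR, with or without that library, nor by DESeq2. Replicate 2 of PKM2ΔMAC stood apart from the other libraries of its genotype, with a chi-square of 47.6 and 59.6 per degree of freedom against replicates 1 and 3, where the other pairs within a genotype had between 8.10 and 14.9. Results on the receptor genes that turn on this library are given with and without it. In bulk RNA, fewer cells of a type and less RNA per cell cannot be told apart.

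Of the 9 receptor genes, 2 passed an adjusted p of 0.05 in the edgeR quasi-likelihood test after Benjamini-Hochberg adjustment over all tested genes, where 0.412% of all genes did so. Ccr3 was higher in PKM2ΔMAC, as were 0.285% of all genes, and Cxcr4 was lower, as were 0.127%. The same 2 genes were those whose genotypes did not overlap, which held for 17.2% of all genes, and those with an unadjusted p under 0.05, which held for 9.83%. The log2 fold change was positive for 6 of the 9 genes and negative for 3, with a median of 0.19, where the median of all tested genes was -0.00021. Adjustment over the 9 genes alone was not made, since they were chosen with results known.

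**Figure D1:**
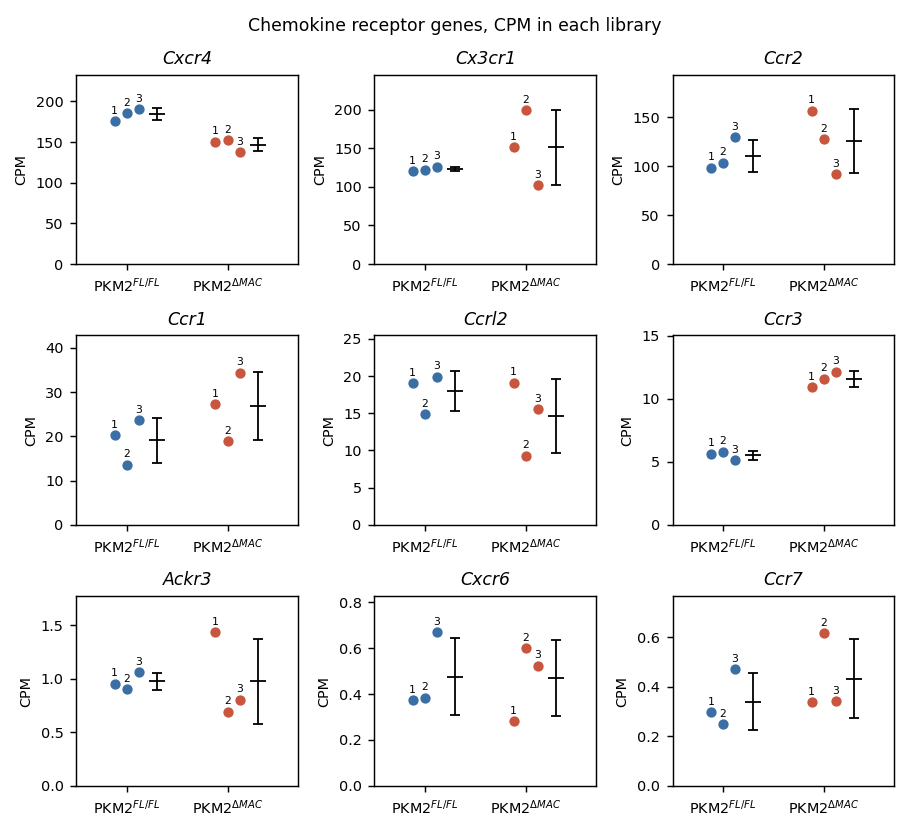
CPM of the 9 receptor genes in each library, from 0 on a linear axis of its own for each gene. Points are libraries numbered by replicate, with PKM2FL/FL in blue and PKM2ΔMAC in red, and the bar beside them is mean ± SD (n = 3). The genotypes are apart for Cxcr4 and Ccr3 and overlap for the other 7 genes.

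Ccr3 is the receptor for eotaxins and is best known from eosinophils. This protein-coding gene was found at chr9:124021972-124031689 (plus strand, GRCm38). The PKM2FL/FL libraries 1 to 3 had 5.66, 5.81 and 5.12 CPM, from 302, 302 and 260 counts. The PKM2ΔMAC libraries had 10.9, 11.6 and 12.1 CPM, from 581, 637 and 603 counts. The groups did not overlap, and the lowest PKM2ΔMAC library was well above the highest PKM2FL/FL library. The means were 5.53 ± 0.364 and 11.6 ± 0.601 CPM (SD, n = 3 each), which is 2.09-fold higher in PKM2ΔMAC, with a 95% interval from 1.79 to 2.44. The log2 fold change was 1.06 ± 0.10 (SE), at an adjusted p of 0.00263 (edgeR quasi-likelihood test, Benjamini-Hochberg). The exact permutation test in both directions on log2(CPM + 0.1) gave p = 0.1, the smallest it can give for 3 libraries against 3. Ccr3 was called under all 17 alternative settings, with log2 fold changes between 1.01 and 1.12 and adjusted p up to 0.0314. Without replicate 2 of PKM2ΔMAC the log2 fold change was 1.06.

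Since Ccr3 is a receptor of eosinophils, the genes that define those cells were read beside it. Of the 7 eosinophil markers listed, 5 were in the tables and 2 passed the filter on low counts. Epx, the eosinophil peroxidase, had 0, 1 and 2 counts in PKM2FL/FL and 2, 0 and 0 counts in PKM2ΔMAC libraries. Prg3, a granule protein gene, had 2, 2 and 1 counts in PKM2FL/FL and 0 counts in each PKM2ΔMAC library, and Il5ra, the interleukin-5 receptor chain, had at most 3 counts in any library. These 3 markers were thus at or near 0 in both genotypes. Prg2, the major basic protein gene, was above 3 counts in each library, with 10, 6 and 37 counts in PKM2FL/FL and 21, 12 and 22 counts in PKM2ΔMAC, and the genotypes overlapped. Siglecf, a surface lectin found on eosinophils and some macrophages, had 6.68 ± 2.78 and 7.66 ± 2.29 CPM (SD, n = 3 each) and was not called, at an adjusted p of 0.916 (edgeR quasi-likelihood test, Benjamini-Hochberg). The summed CPM of the 5 markers was between 4.04 and 9.66 in PKM2FL/FL and between 5.30 and 9.93 in PKM2ΔMAC, and the groups overlapped.

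Cxcr4, the receptor for CXCL12 that retains leukocytes in the bone marrow, lies on the minus strand of chromosome 1, chr1:128588199-128592293. The PKM2FL/FL libraries had 176, 186 and 191 CPM, and the PKM2ΔMAC libraries had 151, 153 and 137 CPM, in the order of the replicates. No PKM2ΔMAC library reached the lowest PKM2FL/FL library. The means were 184 ± 7.34 and 147 ± 8.27 CPM (SD, n = 3 each), so that the PKM2ΔMAC level was 79.8% of the PKM2FL/FL level. The log2 fold change was -0.33 ± 0.05 (SE), with a 95% interval from -0.44 to -0.21 and an adjusted p of 0.0465 (edgeR quasi-likelihood test, Benjamini-Hochberg), and the exact permutation test gave p = 0.1, again its minimum. This call lay close to the threshold. It did not hold when any of PKM2FL/FL replicates 1, 2 and 3 was left out, with an adjusted p of 0.131, 0.271 and 0.289, nor without PKM2ΔMAC replicates 1 or 3, with 0.133 and 0.0609. Without PKM2ΔMAC replicate 2, the library that stood apart, the adjusted p was 0.00425. The direction was the same in every one of the 17 settings, with log2 fold changes from -0.36 to -0.25, and the gene was called in 5 of them, with adjusted p up to 0.339.

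**Figure D2:**
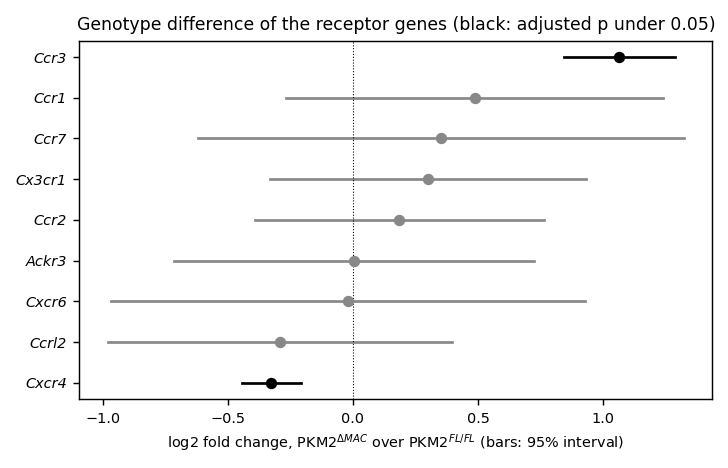
Log2 fold change of each receptor gene, PKM2ΔMAC over PKM2FL/FL, with its 95% interval from the edgeR fit. Black points passed an adjusted p of 0.05 and grey points did not. The interval of Ccr3 lies from 0.84 to 1.29 and that of Cxcr4 from -0.44 to -0.21, and each of the other 7 intervals includes 0.

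Ccr1 and Ccr2, the inflammatory CC receptors, did not pass the test. Ccr1, a receptor for CCL3 and CCL5 found on monocytes, macrophages and neutrophils, lies on the minus strand of chromosome 9, chr9:123962124-123968692. It had 20.3, 13.6 and 23.6 CPM in PKM2FL/FL against 27.3, 19.0 and 34.5 CPM in PKM2ΔMAC libraries. The groups overlapped, since PKM2ΔMAC replicate 2 was below PKM2FL/FL replicates 1 and 3. The log2 fold change was 0.49 ± 0.30 (SE), with a 95% interval from -0.27 to 1.24 and an adjusted p of 0.670 (edgeR quasi-likelihood test, Benjamini-Hochberg), and an interval of this width also holds changes as large as 2.36-fold. It was 0.27 without PKM2ΔMAC replicate 3, 0.29 without PKM2FL/FL replicate 2 and 0.69 without PKM2ΔMAC replicate 2, and none of these fits called the gene. Ccr2, the receptor for CCL2, lies on the plus strand at chr9:124101950-124113557. It had 98.4, 103 and 129 CPM in PKM2FL/FL against 157, 128 and 92.0 CPM in PKM2ΔMAC. The PKM2ΔMAC libraries held both the highest and the lowest value of all 6. Its log2 fold change was 0.19 ± 0.23 (SE), with a 95% interval from -0.39 to 0.76 and an adjusted p of 0.849 (edgeR quasi-likelihood test, Benjamini-Hochberg), and it was -0.0062 without PKM2ΔMAC replicate 1, so that its direction rests on that library.

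Cx3cr1, the receptor for the membrane-bound chemokine CX3CL1, lies on the minus strand of chromosome 9, chr9:119901616-120069879, and showed the most unequal spread of the 9 genes. Its PKM2FL/FL libraries had 120, 122 and 126 CPM, a coefficient of variation of 2.47%. Its PKM2ΔMAC libraries had 151, 200 and 103 CPM, a coefficient of variation of 32%. The 3 PKM2ΔMAC values enclosed the range of PKM2FL/FL, with replicate 2 the highest and replicate 3 below all others. Its log2 fold change was 0.30 ± 0.25 (SE), with a 95% interval from -0.33 to 0.93 and an adjusted p of 0.770 (edgeR quasi-likelihood test, Benjamini-Hochberg). Leaving out PKM2ΔMAC replicate 2 gave 0.05 and leaving out replicate 3 gave 0.51, and neither fit called the gene.

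The atypical receptors were also more variable in PKM2ΔMAC. Ccrl2, on the minus strand at chr9:111054486-111057519, had 19.1, 14.9 and 19.9 CPM in PKM2FL/FL against 19.1, 9.32 and 15.6 CPM in PKM2ΔMAC. Only PKM2ΔMAC replicate 2 lay below the PKM2FL/FL range. The log2 fold change was -0.29 ± 0.28 (SE), with a 95% interval from -0.98 to 0.39 and an adjusted p of 0.801 (edgeR quasi-likelihood test, Benjamini-Hochberg), and it was -0.05 without that library and -0.53 without PKM2ΔMAC replicate 1. Ackr3, a scavenger of CXCL12 and CXCL11, on the plus strand at chr1:90203980-90216751, had 0.955, 0.904 and 1.06 CPM in PKM2FL/FL against 1.43, 0.692 and 0.806 CPM in PKM2ΔMAC, from between 38 and 76 counts. Its PKM2ΔMAC libraries lay on both sides of the PKM2FL/FL range, and the log2 fold change was 0.0042 ± 0.32 (SE), with a 95% interval from -0.71 to 0.72 and a sign that changed between settings.

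Ccr7 and Cxcr6 had few counts. Ccr7, the homing receptor for CCL19 and CCL21 that mature dendritic cells use, lies on the minus strand of chromosome 11, chr11:99144196-99155077, and had 0.300, 0.250 and 0.472 CPM in PKM2FL/FL against 0.339, 0.619 and 0.342 CPM in PKM2ΔMAC, from between 13 and 34 counts. The groups overlapped, and the log2 fold change was 0.35 ± 0.43 (SE), with a 95% interval from -0.62 to 1.32. With 1 library left out it was between 0.0037, without PKM2ΔMAC replicate 2, and 0.66, without PKM2FL/FL replicate 3. Cxcr6, the receptor for CXCL16, on the plus strand at chr9:123806475-123811760, had 0.375, 0.385 and 0.669 CPM in PKM2FL/FL against 0.283, 0.601 and 0.524 CPM in PKM2ΔMAC, from between 15 and 34 counts. Its groups overlapped, with the highest library in PKM2FL/FL and the lowest in PKM2ΔMAC, and with a log2 fold change of -0.02 ± 0.42 (SE), a 95% interval from -0.97 to 0.93, and a sign that depended on the setting. The intervals of both genes include changes of either sign.

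The spread between mice differed among the genes. The SD of log2(CPM + 0.1) was 0.09 in PKM2FL/FL and 0.07 in PKM2ΔMAC for Ccr3, and 0.06 and 0.08 for Cxcr4, near the medians of 0.07 and 0.10 for all tested genes with a mean of at least 1 CPM. It was 0.04 and 0.48 for Cx3cr1, 0.22 and 0.53 for Ccrl2, and 0.11 and 0.50 for Ackr3. For Ccr1 it was similar in the genotypes, at 0.41 and 0.43. The 2 genes that passed the test were also those with a small spread in both genotypes. The test weighs a difference against this spread, so that is no separate result.

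Levels were compared between the genes on the deposited TPM values, which are scaled by gene length. In PKM2FL/FL the order of mean TPM was Cxcr4 with 357 ± 16.2, Cx3cr1 with 95.6 ± 2.64, Ccr2 with 57.1 ± 8.44, Ccrl2 with 24.2 ± 3.37, Ccr1 with 23.7 ± 6.08, Ccr3 with 5.92 ± 0.430, Ackr3 with 1.02 ± 0.0782, Cxcr6 with 0.863 ± 0.300 and Ccr7 with 0.602 ± 0.203 (SD, n = 3 each). Neighbours in this order whose libraries overlapped were Ccrl2 with Ccr1, Ackr3 with Cxcr6, and Cxcr6 with Ccr7. In PKM2ΔMAC the order was Cxcr4 with 300 ± 24.4, Cx3cr1 with 124 ± 43.5, Ccr2 with 68.4 ± 17.8, Ccr1 with 34.8 ± 9.08, Ccrl2 with 20.7 ± 6.56, Ccr3 with 13 ± 0.760, Ackr3 with 1.07 ± 0.420, Cxcr6 with 0.899 ± 0.335 and Ccr7 with 0.813 ± 0.330 (SD, n = 3 each). Here Cx3cr1 also overlapped with Ccr2, and Ccrl2 and Ccr1 exchanged places within their overlap. Cxcr4 was the leading receptor gene of this set in both genotypes, with 63.1% of the summed mean TPM of the 9 genes in PKM2FL/FL and 53.1% in PKM2ΔMAC. The share of Ccr3 was 1.05% and 2.31%. The summed TPM of the 9 genes was 540, 561 and 596 in PKM2FL/FL and 585, 620 and 486 in PKM2ΔMAC libraries, and the groups overlapped. TPM were not rescaled between libraries, where Lyz2 alone had a mean of 47420 TPM in PKM2FL/FL and 79.4 TPM in PKM2ΔMAC. Its part in the TPM differences between genotypes was not tested.

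**Figure D3:**
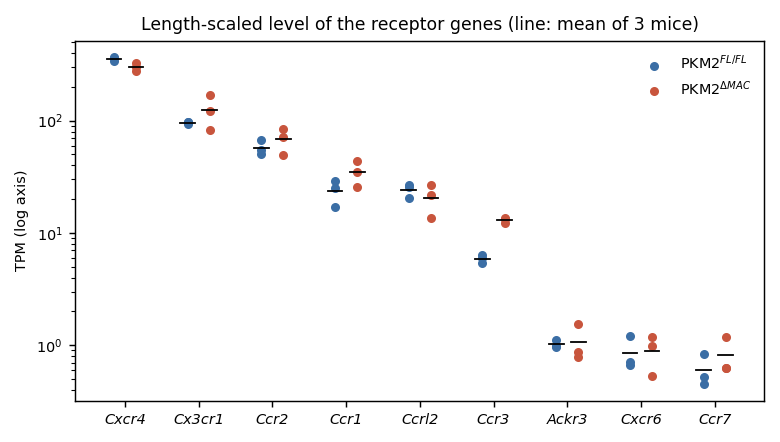
Deposited TPM of the 9 receptor genes on a log axis, with 1 point per library, PKM2FL/FL in blue and PKM2ΔMAC in red, and a line at the mean of 3 mice. Cxcr4 is highest in each library, and Ackr3, Cxcr6 and Ccr7 lie between 0.449 and 1.55 TPM.

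Of the 9 genes, 6 lie on chromosome 9, the chromosome of Pkm, and Ccr3 sits within a receptor cluster there. The start of Ccr3 is 53.3 kb from that of Ccr1, 80.0 kb from that of Ccr2 and 215 kb from that of Cxcr6. Cx3cr1 is 3.95 Mb away, Ccrl2 is 13 Mb away, and Pkm is 64.4 Mb away. No other tested gene around Ccr3 passed the test. Of the 11 tested genes that start within 500 kb of Ccr3, leaving the receptor genes above aside, 0 were called by the edgeR quasi-likelihood test after Benjamini-Hochberg adjustment, 0 had an unadjusted p under 0.05, and DESeq2 called 0. Their log2 fold changes were between -0.27 and 0.20, with a median of -0.03. Across the windows of all 9 receptor genes, 61 other genes were tested, of which edgeR called 0 and 8 had an unadjusted p under 0.05, where 9.83% of all genes did. DESeq2 called 4 of them, where it called 1.83% of all genes. They were Zranb3, within 500 kb of Cxcr4 and with a log2 fold change of 0.35 in the edgeR fit, Cdc6 in the window of Ccr7, and Als2cl and Ltf in that of Ccrl2. Where CC receptor genes of this cluster are alike in sequence, reads that they share could be split or lost in counting. This could limit the values of Ccr1, Ccr2 and Ccr3 and was not tested.

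**Figure D4:**
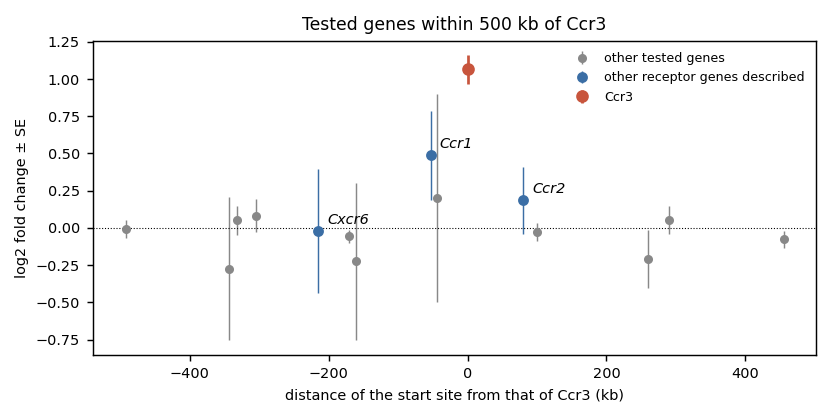
Log2 fold change ± SE, PKM2ΔMAC over PKM2FL/FL, of the tested genes within 500 kb of Ccr3, against the distance of their start site from that of Ccr3 in kb. Ccr3 is red, Cxcr6, Ccr1 and Ccr2 are blue and the other 11 genes are grey, and Ccr3 at 1.06 is the highest point.

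Genes were also ranked by how closely their levels followed each receptor gene over the 6 libraries, as the Euclidean distance between centred log2(CPM + 0.1) values among 13071 genes with a mean of at least 1 CPM. The 3 genes nearest to Ccr3 were Tmsb4x, a thymosin that binds actin monomers, at a distance of 0.169, Msl3, a part of a chromatin-binding complex, at 0.169, and Prps2, an enzyme of phosphoribosyl pyrophosphate synthesis, at 0.216, where a flat profile was at 1.30. All 3 lie near one another on chromosome X, Tmsb4x at 167207093-167209315, Prps2 at 167346322-167382749 and Msl3 at 168654117-168673898. The log2 fold changes of Tmsb4x, Msl3 and Prps2 were 1.03, 0.99 and 1.00, each with an adjusted p under 0.05 (edgeR quasi-likelihood test, Benjamini-Hochberg). Values near that of Ccr3 follow from choosing the nearest profiles and are no separate result. Nearest to Cxcr4 were Ntn4 at 0.07, Hectd2 at 0.08 and Mok at 0.10, where a flat profile was at 0.42, and their log2 fold changes of -0.31, -0.36 and -0.38 were not called. The genes nearest to Cx3cr1 were Lpar4, Dck and Slc5a3, each highest in PKM2ΔMAC replicate 2 and lowest in PKM2ΔMAC replicate 3. Those nearest to Ccr1 were Adamts7, Ksr2 and Gpr31c, those nearest to Ccr2 were Gm45838, Gm28913 and Gm36298, and those nearest to Ccrl2 were Gm13391, F2rl2 and 4930430E12Rik. For Ackr3 they were 0610040J01Rik, Gm45449 and Pfkfb1, for Ccr7 they were Cenps, Haspin and Efna4, and for Cxcr6 they were Gm37352, Gm44950 and Prkg2. The ranking describes likeness over 6 libraries and was not tested.

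**Figure D5:**
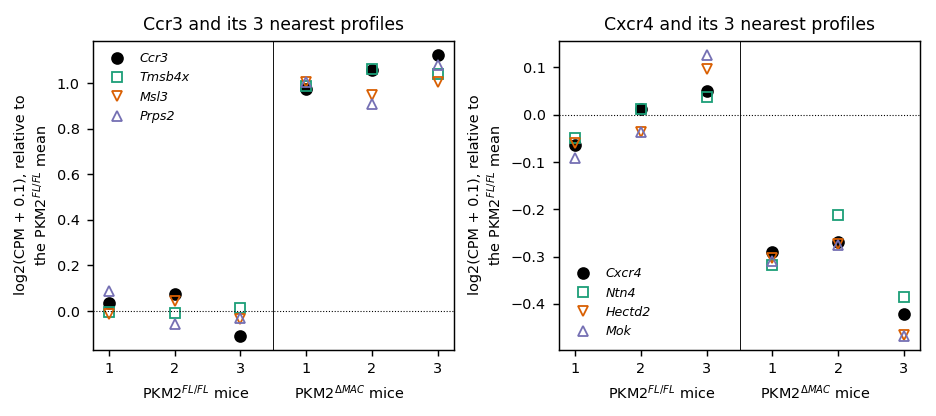
Log2(CPM + 0.1) relative to the PKM2FL/FL mean in each of the 6 libraries, for Ccr3 with Tmsb4x, Msl3 and Prps2 on the left, and for Cxcr4 with Ntn4, Hectd2 and Mok on the right. On the left all 4 genes rise by about the same amount in each PKM2ΔMAC library, and on the right the lowest value of each gene is in PKM2ΔMAC replicate 3.

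The ligands of these receptors were measured in the same libraries. Of the 20 ligand genes listed, 17 were in the tables and 15 were tested. None was called by the edgeR quasi-likelihood test after Benjamini-Hochberg adjustment, that is 0 of 15, while 4 had an unadjusted p under 0.05 and DESeq2 called 1, beside 9.83% and 1.83% of all genes. Their median log2 fold change was -0.12, with 11 of the 15 below 0. Cxcl12, the ligand of CXCR4 and ACKR3, was the most abundant, with 740 ± 117 CPM in PKM2FL/FL against 680 ± 112 CPM in PKM2ΔMAC (SD, n = 3 each), and a log2 fold change of -0.12. Next came Ccl9 with means of 232 and 269 CPM, Cxcl16, the ligand of CXCR6, with 185 and 177 CPM, Ccl6 with 125 and 111 CPM, and Mif, a cytokine that also binds CXCR4, with 117 and 113 CPM. Ccl8, a ligand of CCR2 and other CC receptors, had 1.97 and 0.860 CPM with a log2 fold change of -1.20 ± 0.31 (SE) and an adjusted p of 0.233 (edgeR quasi-likelihood test, Benjamini-Hochberg), and DESeq2 gave it an adjusted p of 0.0326. Ccl3, a ligand of CCR1, had 41.1 and 35.5 CPM with a log2 fold change of -0.21 and an adjusted p of 0.326 (edgeR quasi-likelihood test, Benjamini-Hochberg), and the adjusted p was 0.0468 without PKM2ΔMAC replicate 2, a fit that called 1.77% of all genes. Ccl5, another ligand of CCR1, was lower in PKM2ΔMAC, with 3.15 and 2.26 CPM and no overlap. Its log2 fold change was -0.48, at an adjusted p of 0.542 (edgeR quasi-likelihood test, Benjamini-Hochberg). Ccl12 was also lower, with 1.02 and 0.511 CPM and a log2 fold change of -0.99. Ccl7 was higher, with 24.5 and 31.9 CPM and a log2 fold change of 0.38. Their adjusted p was 0.308 and 0.481 in turn (edgeR quasi-likelihood test, Benjamini-Hochberg). Among the eotaxins that bind CCR3, Ccl24 had 0.192 and 0.178 CPM and Ccl11 was at 0 counts in each PKM2FL/FL library and 0.0524 CPM in PKM2ΔMAC, and neither passed the filter.

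The other chemokine receptors were at low levels for the most part. Of 16 listed, 14 were in the tables and 9 were tested, of which edgeR and DESeq2 each called 0, and 0 had an unadjusted edgeR p below 0.05. The shares of all genes were 0.412%, 1.83% and 9.83%, at which few or none of 9 genes would pass. The highest was Cmklr1, the signalling receptor for chemerin, with 95.1 ± 2.44 and 89.9 ± 12.7 CPM (SD, n = 3 each). Ackr4, an atypical receptor for CCR7 ligands, had 8.93 and 8.80 CPM, Cxcr3 had 4.33 and 3.47 CPM, Ccr10 had 0.809 and 0.774 CPM, and Cxcr2, the main receptor of neutrophils, had 0.428 and 0.724 CPM, in PKM2FL/FL and PKM2ΔMAC in turn. The median log2 fold change of the 9 was -0.06.

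Downstream of the receptors, 37 signalling genes were tested, of 39 symbols listed, 2 of which are older symbols of genes on the same list. By the edgeR quasi-likelihood test after Benjamini-Hochberg adjustment 0 were called, DESeq2 also called 0, and 2 had an unadjusted p under 0.05, beside 0.412%, 1.83% and 9.83% of all genes. Their median log2 fold change was 0.01. The most abundant were Gnai2, an inhibitory G protein subunit, with 923 and 930 CPM, the GTPase gene Cdc42 with 699 and 708 CPM, the Rac activators Prex1 with 504 and 520 CPM and Dock2 with 430 and 452 CPM, and the GTPase gene Rac1 with 416 and 415 CPM. Rgs16, which shortens G protein signals, had a log2 fold change of -0.33 ± 0.18 (SE) and an adjusted p of 0.614 (edgeR quasi-likelihood test, Benjamini-Hochberg). Without PKM2ΔMAC replicate 2 it was -0.57 and the gene was the only 1 of the list called, in a fit that called 1.77% of all genes.

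Markers of other cell types were read beside these values. The log2 fold change was positive for 8 of 8 neutrophil markers, with a median of 1.83. The edgeR test called 0 of them, 5 had an unadjusted p under 0.05, and DESeq2 called 5, where the shares over all genes were 0.412%, 9.83% and 1.83%. Their summed CPM was 20.3, 34.9 and 48.8 in PKM2FL/FL and 122, 90.1 and 170 in PKM2ΔMAC, and the sums did not overlap. None of the 8 had a genotype mean of 0, and Ngp, a granule protein gene, had 4.10 ± 1.88 and 30.5 ± 16.6 CPM (SD, n = 3 each). Summed markers of inflammatory monocytes, the cells that carry Ccr2, were 2113, 2069 and 2004 CPM in PKM2FL/FL against 2243, 1852 and 2452 CPM in PKM2ΔMAC, with 0 of 6 called by edgeR and 1 by DESeq2. Fn1 carried most of this sum, with 1899 and 2017 CPM. Chil3, a chitinase-like protein gene, had means of 7.23 and 28.4 CPM without overlap and was not called by edgeR, and Ly6c2 had 1.98 and 3.48 CPM. Summed dendritic cell markers were between 133 and 149 CPM in PKM2FL/FL against between 127 and 159 CPM in PKM2ΔMAC, with 0 of 7 called, and those of B cells between 39.4 and 50.8 and between 42.4 and 55.2. Most of these sums came from Fscn1, with 138 CPM in each genotype, and from Ebf1, with 44.3 and 46.9 CPM. The sums of T and NK cell markers were between 0.433 and 0.843 and between 0.419 and 0.725. Those of mast cells and basophils, which can also express Ccr3, were between 8.13 and 8.97 and between 6.67 and 11.2 CPM, with 0 of 4 tested called by edgeR or by DESeq2. Of the 4, Kit, Mcpt8 and Gata2 had positive log2 fold changes of 0.11, 0.12 and 0.53 and Cpa3 had -1.45. Fcer1a, the Fc receptor chain that defines these cells, had 2 counts in each PKM2FL/FL and 0 counts in each PKM2ΔMAC library. The part of the neutrophil markers in the values of Ccr1, Ccr3 and Cxcr4 was not tested.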

How the data were processed

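RNA of primed BMDMs from 3 PKM2FL/FL and 3 PKM2ΔMAC mice was sequenced. The authors deposited unnormalized counts for each gene symbol, and also TPM values of the same symbols. The submitters' processing notes name FastQC 0.12.1, Trim Galore 0.6.10, HISAT2 2.2.1, SAMtools 1.19.2, Subread 2.0.6 and the build mm10, without their roles or settings. The annotation and whether strand was used in counting are not given in the sources used here. Where receptor genes are alike in sequence, reads that they share could be split or lost by such counting, which was not tested. Columns were matched to libraries by genotype and mouse number, and 0 columns of other samples were found.

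Counts were compared with edgeR 4.0.16 (R 4.3.3, limma 3.58.1). The steps were filterByExpr on genotype, TMM scaling and the quasi-likelihood test with robust estimation and genotype as the only term, over 16516 genes with Benjamini-Hochberg adjustment and a threshold of 0.05. SE is the absolute log2 fold change over the square root of F. For single genes an exact permutation test on log2(CPM + 0.1) was added. The p-values measure the spread between these mice. The functions were tested on simulated data. Tables were joined with python 3.11.15 and pandas 2.3.3.

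Other settings tried were upper-quartile or RLE scaling, DESeq2 1.42.0, no filter, at least 10 counts in every library, down-sampling to the smallest total, non-robust estimation, a replicate block, each library left out, and limma-trend on log2 TPM (pseudocount 1 or 0.1, for genes with a mean TPM of 1 or more, or without a filter). Fold changes on log2(TPM + pseudocount) understate the change of low genes.

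Genes named are the 9 receptor genes, Pkm, Lyz2, genes of a list that edgeR called, the 5 most abundant genes of the receptor, ligand, signalling and macrophage lists, genes within 500 kb of a receptor gene that edgeR called, and the 3 genes nearest in profile to each. The other marker lists are given by their sums. Ccl8, Ccl3, Ccl5, Ccl12, Ccl7, Ccl11, Ccl24, Rgs16, the neighbours called by DESeq2 and single markers of other cell types were chosen for naming with their values in view. The receptor genes and the lists were chosen with earlier results of these data known. A gene of the family is not reported here. Positions are from GENCODE M21 on GRCm38, the same assembly as mm10, where 23349 of 23935 symbols were found, and promoters from RefSeq on GRCm38.p6.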

Additional observations from a re-analysis of the deposited data

How the results depend on the processing

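Ccr3 kept its direction and its call in all 17 alternatives. The number of receptor genes called was 2 under DESeq2, RLE scaling, no filter and down-sampling, and 1 with upper-quartile scaling, at least 10 counts in every library, non-robust estimation and each of the 3 limma-trend settings on TPM, where Cxcr4 was not called. It was between 1 and 2 when 1 library was left out. The number of all genes called, 68, was 302 with DESeq2, 120 without the filter, and 41, 34 and 36 with limma-trend on log2(TPM + 1), log2(TPM + 0.1) and log2(TPM + 1) without a filter. It was between 22 and 299 with 1 library left out, the lowest without PKM2FL/FL replicate 3 and the highest without PKM2ΔMAC replicate 2. Of the ligand genes, 1 (Ccl8) was called with DESeq2, and between 0 and 1 (Ccl3) when 1 library was left out. Of the signalling genes, between 0 and 1 was called when 1 library was left out, Rgs16 without PKM2ΔMAC replicate 2, with a log2 fold change of -0.57. Fits without 1 library pool the spread over the remaining 5.

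The sign turned for genes that were not called. Cxcr6 had 0.0069 after down-sampling and 0.024 with limma-trend without a filter, and between -0.24 and 0.30 with 1 library left out. Ackr3 had -0.055 after down-sampling and -0.050 with the replicate block, and between -0.38 and 0.20 with 1 library left out. Ccr2 had between -0.0062 and 0.36. Ccr7 and Cxcr6 had no value with the filter on a mean TPM of 1. The cause of these changes was not tested. Ccr7, Cxcr6 and Ackr3 had between 13 and 76 counts per library, and the parts of counting error and of the spread between mice in their intervals were not tested.

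Replicate numbers are shared between the genotypes, but deviations of same-numbered libraries correlated by only 0.08, 0.14 and 0.02. PKM2ΔMAC replicates 1 and 2 correlated best with the PKM2FL/FL library of the same number. PKM2ΔMAC replicate 3 correlated best with PKM2FL/FL replicate 1, at 0.07. The sources do not call the numbers a pairing, and they were not taken as one in the main fit. With the replicate block 82 genes and 2 receptor genes were called, Ccr3 and Ccr1 (log2 fold change 0.48, adjusted p = 0.0234, edgeR's quasi-likelihood test), and Cxcr4 had an adjusted p of 0.0577.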
